A study of Homo sapiens with 18 samples.

Results

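The integrin subunits and laminin chains were examined across 9 clones of HCT116, an established human colorectal carcinoma cell line. Members were all genes whose symbol begins with ITGA or ITGB followed by a number or letter of the integrin family, or with LAMA, LAMB or LAMC followed by a number, each read on the probe set with the highest mean signal. The rule used no difference between clones. It gave 35 of the 19775 genes measured on the arrays: 18 integrin alpha subunits, 7 integrin beta subunits, 4 laminin alpha chains, 4 laminin beta chains and 2 laminin gamma chains. Another 3 RefSeq genes of the rule are not analysed here, among them ITGB6, whose probe sets also carry a second gene. The study asked how mutations of IDH1 and IDH2, the cytosolic and mitochondrial isocitrate dehydrogenases, relate to the epithelial-mesenchymal transition and its regulator ZEB1. Total RNA of cells grown for 6 days was hybridised to 18 one-colour Affymetrix arrays, 2 biological replicates of each clone.

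The wild-type clones were the parental line and 16F8, which was targeted with IDH1 R132C/+ but is described as not expressing the mutant allele in its mRNA. The parental line was not targeted and is counted as a clone here, so the wild-type group joins an untargeted line and a targeted clone. The IDH1-mutant clones were 2C11 and 2H1 (R132H/+) and 3A4 (R132C/+). The IDH2-mutant clones were 8G12 and 17H5 (R140Q/+) and 47C2 and 45G3 (R172K/+). All mutations were heterozygous, and no treatment was given. Each targeted line is a single clone, and R132C is carried by 1 expressing clone, so a difference between 1 clone and the parental line cannot be told apart from a difference between clones of any origin. The 8 comparisons with the parental line share its 2 arrays.

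Integrins are heterodimers of an alpha and a beta subunit that span the cell membrane and tie the extracellular matrix to the actin or keratin cytoskeleton. Laminins are trimers of an alpha, a beta and a gamma chain and form the sheet of the basement membrane on which epithelial cells sit. In intestinal epithelium the laminin receptors alpha3beta1, alpha6beta1 and alpha6beta4 hold cells to that sheet, and alpha6beta4 is the integrin of the hemidesmosome. Other integrins read collagens, fibronectin and further proteins with an RGD sequence, and a group with beta2 or beta7 belongs to leukocytes.

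Array medians lay between 12.3 and 15.6 signal units, and replicate arrays of a clone correlated at 0.9842 to 0.9897 on the log2 scale, against 0.9698 to 0.9879 between clones. In 4 arrays (parental replicate 1, 2C11 replicate 1, 16F8 replicate 1 and 8G12 replicate 2) the 12 spiked poly-A control probe sets averaged 1.67-fold above the other 14 arrays. Of 12 colon epithelial markers 10 passed the filter on dim signals, while CDX1 and VIL1 lay under the median in every array. Leukocyte, platelet and endothelial marker lists summed to 25.7 to 73.6, 15.3 to 41.7 and 10.8 to 39 signal units per array, against 11400 to 16700 for the epithelial list. Fibroblast markers summed to 208 to 377, of which COL1A1 gave 187 to 358.5.

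At or over the array median in all 18 arrays lay 19 members: the laminin receptor subunits ITGA3, ITGA6, ITGA7, ITGB1 and ITGB4, the collagen receptor subunit ITGA2, the fibronectin and RGD receptor subunits ITGA5, ITGAV, ITGB5 and ITGB8, the subunits ITGA9 and ITGAE, and the laminin chains LAMA2, LAMA5, LAMB1, LAMB2, LAMB3, LAMC1 and LAMC3. Another 5 members, which complete the 24 that could be tested, crossed the median in some arrays: ITGA10 lay over it in 16, ITGA2B in 15, ITGA4 in 14, ITGAX in 11 and LAMA4 in 6. The leukocyte subunit ITGB7 exceeded the median in 1 array and failed the filter, with signals of 0.8 to 15.1. Under the median in all 18 arrays lay 10 members. They were the leukocyte subunits ITGAL (0.4 to 4.5), ITGAM (0.2 to 13), ITGAD (0.3 to 5.1) and ITGB2 (1 to 6.9), the collagen receptor subunits ITGA1 (1.4 to 8.1) and ITGA11 (0.7 to 11.5), ITGA8 (0.2 to 8.4), ITGB3 (1.1 to 12.4), LAMA1 (0.3 to 2.9) and LAMB4 (0.4 to 7.2). LAMB4 is the gene next to LAMB1, and ITGAM and ITGAD flank ITGAX; of these, LAMB1 and ITGAX were among the tested members. A signal under the median is not shown to be absence, and in bulk RNA fewer cells carrying a transcript and less of it per cell cannot be told apart.

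**Figure D1:**
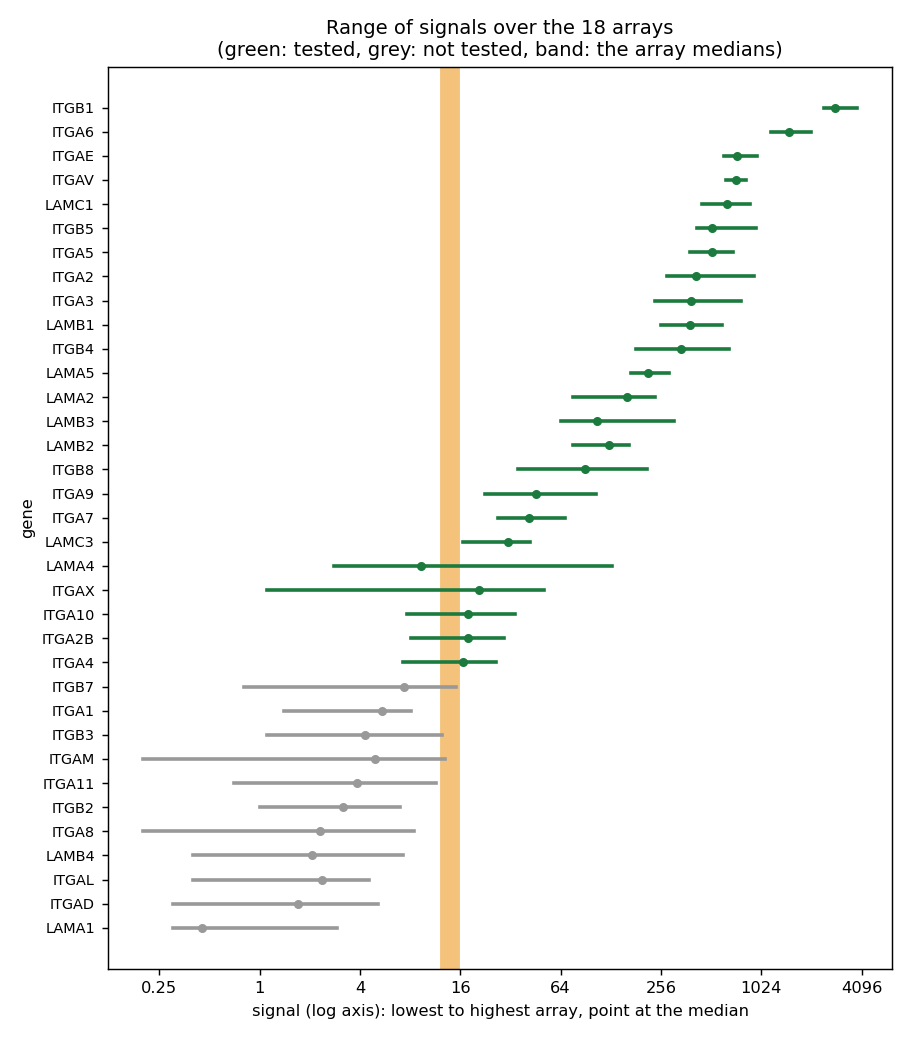
Range of the signal over the 18 arrays for each of the 35 members (log axis; green tested, grey not tested), with a point at the median array and a band for the array medians from 12.3 to 15.6. The 19 members at the top lie over the median of every array, 6 cross it, and 10 lie under it in all arrays.

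Most integrin subunits and laminin chains that could be tested differed between clones. Of the 24 tested members, 20 (83.3%) differed among the clones by limma's F test on the 18 arrays with Benjamini-Hochberg adjustment, against 52.4% of the 12537 genes tested. All 8 tested laminin chains and 12 of the 16 integrin subunits passed. Among genes at or over the median in every array, where passing the filter cannot depend on 1 high clone, 17 of 19 members (89.5%) and 53.1% of 11025 genes passed. The range of clone means on the log2 scale was widest for LAMA4 (4.21), ITGAX (2.86), ITGB8 (2.28), LAMB3 (2.16) and ITGA9 (1.96), followed by ITGB4 (1.65), ITGA2 (1.53) and ITGA3 (1.41). LAMA4 and ITGAX owe part of their place among the tested genes to their high clones. Not passing were ITGAV (adjusted p = 0.226), ITGA7 (0.185), ITGA10 (0.141) and ITGA2B (0.0989). All log2 differences below are of the signal plus 2.2, which understates changes of dim genes.

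Promoter sequences of 24 of the 35 members were held in a RefSeq table on GRCh38.p14, each from 250 bases before to 50 after the annotated start. The windows of 4 members are shown because they are a laminin chain and receptor subunits that changed in several clones, with and without one motif: LAMB3 at chr1:209652376-209652675 (minus strand), ITGA6 at chr2:172427086-172427385, ITGA2 at chr5:52989102-52989401 and ITGB8 at chr7:20330650-20330949 (plus strand). Capitals mark CAGGTG or its reverse complement CACCTG, the E-box form bound by ZEB1 and SNAI repressors.
LAMB3: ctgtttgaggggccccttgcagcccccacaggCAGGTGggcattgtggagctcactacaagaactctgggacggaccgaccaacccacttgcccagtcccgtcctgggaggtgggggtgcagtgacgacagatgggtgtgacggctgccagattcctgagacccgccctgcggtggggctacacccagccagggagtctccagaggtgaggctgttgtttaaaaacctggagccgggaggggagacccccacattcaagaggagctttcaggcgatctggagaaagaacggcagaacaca
ITGA6: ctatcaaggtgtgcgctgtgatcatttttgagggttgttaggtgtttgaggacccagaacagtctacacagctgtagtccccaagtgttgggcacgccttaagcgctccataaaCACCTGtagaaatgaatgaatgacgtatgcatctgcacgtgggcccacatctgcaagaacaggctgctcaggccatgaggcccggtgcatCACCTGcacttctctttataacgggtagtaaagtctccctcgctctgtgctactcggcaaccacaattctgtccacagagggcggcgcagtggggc
ITGA2: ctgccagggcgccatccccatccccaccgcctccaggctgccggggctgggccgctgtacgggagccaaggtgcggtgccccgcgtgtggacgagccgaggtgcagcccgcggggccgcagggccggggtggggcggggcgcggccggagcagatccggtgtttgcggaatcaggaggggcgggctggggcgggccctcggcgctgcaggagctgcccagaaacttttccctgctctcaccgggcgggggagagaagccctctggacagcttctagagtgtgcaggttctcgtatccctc
ITGB8: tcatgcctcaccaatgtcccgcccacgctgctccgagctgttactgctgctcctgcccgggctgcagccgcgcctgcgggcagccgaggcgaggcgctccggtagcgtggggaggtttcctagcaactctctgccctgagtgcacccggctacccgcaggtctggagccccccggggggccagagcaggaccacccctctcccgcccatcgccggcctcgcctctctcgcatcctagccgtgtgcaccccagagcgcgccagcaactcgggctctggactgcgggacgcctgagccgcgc
The motif occurred once in the LAMB3 window, at -218 from the start, and in the ITGA6 window at -136 and -46. Neither of the ITGA2 and ITGB8 windows held these letters. On either strand it lay in 5 of the 24 member promoters (ITGA6, ITGA11, LAMA5, LAMB3 and LAMB4), against 20.6% of 27305 promoters of the same length. The AP-1 motif TGANTCA was in 1 member promoter (ITGA5) and 7.8% of all. The TEAD motif GGAATG was in 4 (ITGA5, ITGA10, ITGB1 and LAMA2) and 14.0% of all. A match describes the sequence and is not a measured binding site.

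Of the subunits that pair into laminin receptors, ITGA3 was lower in every targeted clone than in the parental line, and ITGB4 was lower in most. ITGA3, the alpha subunit of the laminin receptor alpha3beta1, read 662.3 and 768.9 in the parental line, 268.8 and 291.4 in 16F8, 551.2 and 507 in 3A4, 472.2 and 465.9 in 2H1 and 235.6 and 304 in 2C11. The IDH2-mutant clones read 371.1 and 420.2 in 17H5, 374.5 and 309.4 in 8G12, 301.3 and 284.7 in 45G3 and 401.9 and 409.1 in 47C2. The parental arrays lay above all 16 others. The log2 differences of ITGA3 from the parental line were -1.41 in 2C11, -1.34 in 16F8, -1.28 in 45G3, -1.06 in 8G12, -0.85 in 17H5, -0.81 in 47C2, -0.60 in 2H1 and -0.43 in 3A4, each ± 0.13 (SE), with limma adjusted p from 7.09e-07 in 2C11 to 0.0154 in 3A4. The difference in 3A4 was -0.32 without parental replicate 2 (adjusted p = 0.137) and -0.37 without 3A4 replicate 2 (adjusted p = 0.112). Of all genes tested, 18.2% had all 8 targeted clones below the parental mean, and 5 of the 24 members did: ITGA3, ITGA6, ITGAX, LAMA5 and LAMB2. All 8 lay above it in 20.5% of genes and in 1 member, ITGA7.

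ITGB4, the beta subunit of the hemidesmosome integrin, separated the clones differently. ITGB4 read 443 and 557.9 in the parental line, 217.3 and 238.3 in 16F8, 518.9 and 511.4 in 3A4, 640.5 and 654.8 in 2H1 and 289.5 and 343.3 in 2C11. In the IDH2 clones the signals were 299.7 and 296.6 in 17H5, 232.5 and 181.3 in 8G12, 334.4 and 286 in 45G3 and 433.1 and 485.4 in 47C2. The arrays of 2H1 were the highest, those of 3A4 and 47C2 overlapped the parental pair, and the other 5 targeted clones lay below it. The log2 differences that passed were -1.12 in 16F8 (adjusted p = 2.31e-05), -0.65 in 2C11 (adjusted p = 0.00219), 0.38 in 2H1 (adjusted p = 0.0468), -1.27 in 8G12 (adjusted p = 9.9e-06), -0.73 in 17H5 (adjusted p = 0.00254) and -0.68 in 45G3 (adjusted p = 0.00151), each ± 0.14, while 3A4 and 47C2 read 0.05 and -0.12. The rise in 2H1 was lost when single arrays were left out: it was 0.21 to 0.40 (adjusted p = 0.0563 to 0.369) without 1 of parental replicate 1, 2H1 replicate 1, 2H1 replicate 2, 3A4 replicate 1, 3A4 replicate 2, 17H5 replicate 1, 17H5 replicate 2, 47C2 replicate 1 and 47C2 replicate 2, and 0.38 (adjusted p = 0.0518) with the replicate number as a block. The fall in 45G3 was lost on the probe set of highest variance (-0.44, adjusted p = 0.145) and as the mean over probe sets (-0.38, adjusted p = 0.122), and the fall in 17H5 on the probe set of highest variance (-0.57, adjusted p = 0.109). ITGA6, the partner of ITGB4 and of ITGB1, varied less. ITGA6 read 1592.8 and 2028.7 in the parental line, 1555.3 and 1507.8 in 16F8, 1488.7 and 1645.1 in 3A4, 1599.5 and 1819.1 in 2H1 and 1311.6 and 1520.5 in 2C11. IDH2-mutant arrays gave 1460.3 and 1680.2 in 17H5, 1162.9 and 1163 in 8G12, 1617.6 and 1478.4 in 45G3 and 1456.4 and 1356.9 in 47C2. Its lowest arrays were those of 8G12, below every other array, and it fell by 0.63 there (adjusted p = 0.00127), and by 0.35 each in 2C11 and 47C2 (adjusted p = 0.0382 and 0.0333), each ± 0.12. The call in 2C11 was lost at -0.17 without parental replicate 2 (adjusted p = 0.385) and -0.24 without 2C11 replicate 1 (adjusted p = 0.253). The call in 47C2 was lost at -0.41 to -0.18 (adjusted p = 0.0775 to 0.357) without 1 of parental replicate 2, 47C2 replicate 1 and 47C2 replicate 2, and was -0.09 (adjusted p = 0.582) as the mean over probe sets and 0.17 (adjusted p = 0.463) on the probe set of highest variance.

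ITGB1, the beta subunit shared by most laminin, collagen and fibronectin receptors, varied over a narrow range. ITGB1 read 3057.9 and 3781.3 in the parental line, 2524.2 and 2946.6 in 16F8, 3549.8 and 3830.8 in 3A4, 3573.5 and 3480.4 in 2H1 and 2752.4 and 3431.4 in 2C11. Its signals in the IDH2 clones were 2825.6 and 2819.7 in 17H5, 2748.8 and 2426 in 8G12, 2716.9 and 2513.7 in 45G3 and 2663.3 and 2703.1 in 47C2. It was lower than in the parental line in 3 IDH2 clones, with differences of -0.40 in 8G12 (adjusted p = 0.0255), -0.34 in 47C2 (adjusted p = 0.0389) and -0.38 in 45G3 (adjusted p = 0.0222), each ± 0.12. None of these calls held in every left-out array: 8G12 read -0.24 without parental replicate 2 (adjusted p = 0.283) and -0.31 without 8G12 replicate 2 (adjusted p = 0.184), 45G3 read -0.23 without parental replicate 2 (adjusted p = 0.241) and -0.32 without 45G3 replicate 2 (adjusted p = 0.136), and 47C2 read -0.35 to -0.19 (adjusted p = 0.128 to 0.348) without 1 of parental replicate 2, 47C2 replicate 1 and 47C2 replicate 2. ITGA7, another laminin-binding alpha subunit best known from muscle, ran from 26.8 to 68 and was called in 3A4 alone, at 0.86 ± 0.28 (adjusted p = 0.0228). That value became 0.62 without parental replicate 2 (adjusted p = 0.183) and 0.70 without 3A4 replicate 2 (adjusted p = 0.164), and 0.56 (adjusted p = 0.0546) as the mean over probe sets.

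**Figure D2:**
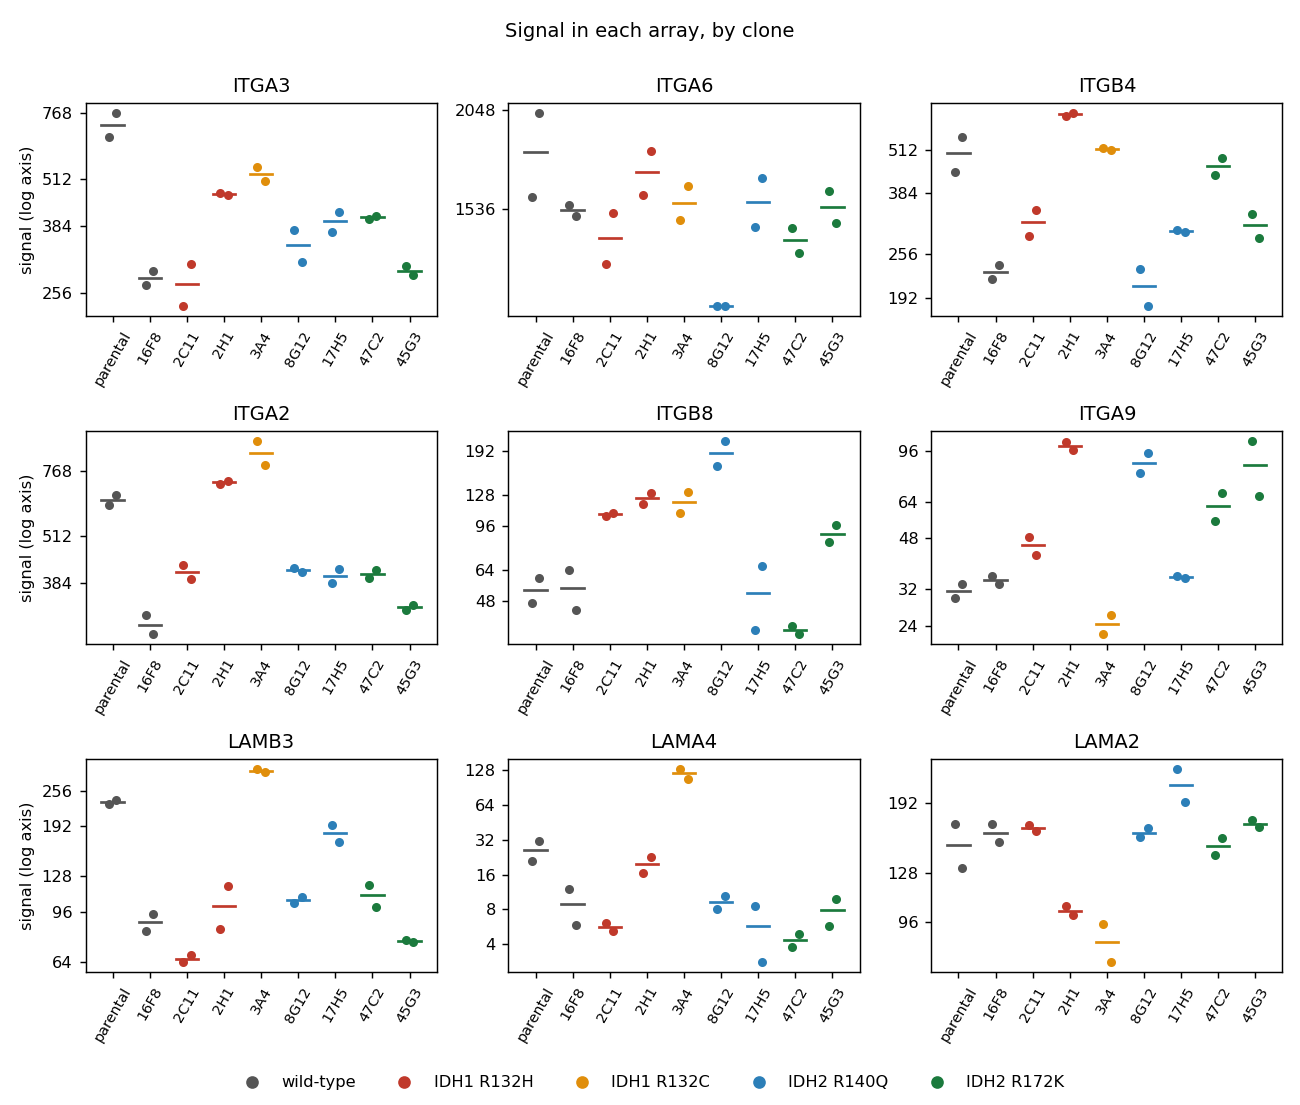
Signal in each array (points, log axis) and the mean of the 2 arrays (line) for 9 members, with clones coloured by genotype. ITGA3 is highest in the parental arrays, 662.3 and 768.9, LAMA4 is highest in 3A4, 130.7 and 107.8, and ITGB8 is highest in 8G12, 166.7 and 210.3.

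ITGA2, the alpha subunit of the collagen receptor alpha2beta1, had the smallest F-test adjusted p of the family (2.84e-08). ITGA2 read 622.9 and 662.8 in the parental line, 314.1 and 279.7 in 16F8, 925 and 794.3 in 3A4, 709.9 and 723.2 in 2H1 and 430.3 and 394.1 in 2C11. Among the IDH2 clones it read 383.4 and 418.7 in 17H5, 422.2 and 410.8 in 8G12, 325.5 and 335 in 45G3 and 396.4 and 417 in 47C2. The arrays of 3A4 and 2H1 were the highest, the parental pair came next, and the remaining 6 clones lay lower without overlap. Its log2 differences were -1.11 in 16F8 (adjusted p = 1.38e-06), -0.96 in 45G3 (adjusted p = 4.57e-06), -0.68 in 17H5 (adjusted p = 0.000485), -0.66 in 47C2 (adjusted p = 0.000188), -0.64 in 2C11 (adjusted p = 0.000235), -0.62 in 8G12 (adjusted p = 0.000487) and 0.42 in 3A4 (adjusted p = 0.00488), each ± 0.10, and 0.16 in 2H1, which did not pass. The 6 falls held with any 1 array left out, while the rise in 3A4 became 0.30 without 3A4 replicate 1 (adjusted p = 0.0769) and was 0.19 (adjusted p = 0.184) as the mean over all probe sets. ITGA10, a collagen receptor subunit of cartilage, ran from 7.7 to 34.2 and was called in no clone; its largest differences were 0.99 in 47C2 and 0.88 in 3A4, each ± 0.37.

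Among the receptors for fibronectin and other RGD proteins, ITGB8 changed most and ITGAV, its alpha partner, did not pass the F test. ITGB8, whose dimer with alphav binds latent TGF-beta, read 47.5 and 59.5 in the parental line, 63.8 and 44.4 in 16F8, 108.2 and 130.8 in 3A4, 118 and 130.3 in 2H1 and 105.2 and 108.5 in 2C11. The IDH2-mutant clones read 37 and 66.7 in 17H5, 166.7 and 210.3 in 8G12, 82.6 and 96.6 in 45G3 and 38.3 and 35.5 in 47C2. The arrays of 2C11, 2H1, 3A4, 8G12 and 45G3 lay above all arrays of the other 4 clones. The differences were 1.77 in 8G12 (adjusted p = 5.44e-05), 1.19 in 2H1 (adjusted p = 0.000894), 1.13 in 3A4 (adjusted p = 0.00114), 0.98 in 2C11 (adjusted p = 0.0049) and 0.73 in 45G3 (adjusted p = 0.0264), each ± 0.23, against 0.00 in 16F8, -0.09 in 17H5 and -0.50 in 47C2. The calls in 8G12, 2H1 and 3A4 held with any 1 array left out, while 2C11 read 0.82 without parental replicate 1 (adjusted p = 0.0507) and 45G3 read 0.57 without parental replicate 1 (adjusted p = 0.161) and 0.62 without 45G3 replicate 2 (adjusted p = 0.153). As a mean over all ITGB8 probe sets the differences in 2C11 and 45G3 were 0.20 and 0.31 and did not pass. ITGAV ran from 625.6 to 831.9 signal units over the 18 arrays, with differences between -0.12 in 47C2 and 0.20 in 2H1.

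ITGB5, which pairs with alphav to bind vitronectin, read 514 and 603.9 in the parental line, 530.9 and 483.4 in 16F8, 788.6 and 957.7 in 3A4, 571.7 and 632.7 in 2H1 and 503.3 and 525.6 in 2C11. In the IDH2 clones the signals were 446.5 and 422.8 in 17H5, 507.9 and 614.7 in 8G12, 510.4 and 626.8 in 45G3 and 515.3 and 490 in 47C2. It was higher in 3A4, whose arrays lay above all others, by 0.64 ± 0.13 (adjusted p = 0.00103), and was called in no other clone. The call in 3A4 held with any 1 array left out but not as a mean over probe sets (0.31, adjusted p = 0.0883) or on the probe set of highest variance (0.51, adjusted p = 0.29). ITGA5, the alpha subunit of the main fibronectin receptor, read 628.9 and 482 in the parental line, 442.7 and 434.1 in 16F8, 690.9 and 640.1 in 3A4, 529.3 and 484.2 in 2H1 and 477.2 and 454.4 in 2C11. IDH2-mutant arrays gave 574.2 and 621.8 in 17H5, 514.9 and 507.6 in 8G12, 522 and 381.3 in 45G3 and 562.2 and 604.3 in 47C2. It passed the F test (adjusted p = 0.0132) but was called in no clone against the parental line, with differences from -0.33 in 16F8 to 0.27 in 3A4. ITGA2B, the platelet fibrinogen receptor subunit, ran from 8.1 to 29.3 and was called in no clone.

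ITGA9 and ITGA4 belong to a separate branch of alpha subunits, which bind tenascin, osteopontin, fibronectin and VCAM1. ITGA9 read 29.9 and 33.5 in the parental line, 35.5 and 33.3 in 16F8, 22.4 and 26 in 3A4, 103.6 and 96.6 in 2H1 and 48.6 and 42.2 in 2C11. Its signals in the IDH2 clones were 35.6 and 35 in 17H5, 80.5 and 94.6 in 8G12, 104.2 and 67.3 in 45G3 and 54.9 and 69.1 in 47C2. The arrays of 2H1, 8G12, 45G3 and 47C2 lay above those of the other 5 clones without overlap, and 3A4 had the lowest. Differences were 1.60 in 2H1 (adjusted p = 1.51e-05), 1.40 in 8G12 (adjusted p = 0.000144), 1.35 in 45G3 (adjusted p = 0.000122) and 0.91 in 47C2 (adjusted p = 0.00294), each ± 0.20. The call in 47C2 was 0.75 without 47C2 replicate 2 (adjusted p = 0.0541), and 2H1 and 47C2 read 0.65 and 0.59 and did not pass as the mean over probe sets. The other ITGA9 probe sets lay under the array median in all arrays. ITGA4 was close to the median. ITGA4 read 9.7 and 15.3 in the parental line, 21.6 and 15.6 in 16F8, 7.2 and 11.9 in 3A4, 13.8 and 14.7 in 2H1 and 20.1 and 19.7 in 2C11. Among the IDH2 clones it read 14.5 and 12.9 in 17H5, 17.4 and 26 in 8G12, 23.1 and 21.9 in 45G3 and 26 and 22.2 in 47C2. The 2 R172K clones were called, 47C2 at 0.86 (adjusted p = 0.0284) and 45G3 at 0.78 (adjusted p = 0.0445), each ± 0.28. The call in 47C2 was lost at 0.58 to 0.97 (adjusted p = 0.0773 to 0.218) without 1 of parental replicate 1, 47C2 replicate 1 and 47C2 replicate 2. That in 45G3 was lost at 0.50 to 0.81 (adjusted p = 0.0502 to 0.3) without 1 of parental replicate 1, 2C11 replicate 1, 2C11 replicate 2, 2H1 replicate 1, 2H1 replicate 2, 17H5 replicate 1, 17H5 replicate 2, 47C2 replicate 1, 47C2 replicate 2, 45G3 replicate 1 and 45G3 replicate 2. As means over the ITGA4 probe sets, of which the others lay under the median in all arrays, the values were 0.14 in 47C2 and 0.16 in 45G3.

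ITGAE and ITGAX, subunits known from leukocytes, also passed the filter. ITGAE, which pairs with beta7 to bind E-cadherin on lymphocytes of the gut, read 731.5 and 610.6 in the parental line, 966 and 832.6 in 16F8, 657 and 642.2 in 3A4, 714 and 682.6 in 2H1 and 815.2 and 779.3 in 2C11. The IDH2-mutant clones read 684.6 and 709 in 17H5, 783.1 and 779.6 in 8G12, 773.4 and 936.8 in 45G3 and 732.1 and 736.1 in 47C2. It was higher than in the parental line in 16F8, by 0.42 (adjusted p = 0.0107), and in 45G3, by 0.35 (adjusted p = 0.0244), each ± 0.11. These fell to 0.29 without parental replicate 2 (adjusted p = 0.146) and 0.32 without 16F8 replicate 1 (adjusted p = 0.118) in 16F8, and to 0.22 without parental replicate 2 (adjusted p = 0.24) and 0.21 without 45G3 replicate 2 (adjusted p = 0.241) in 45G3. ITGAX, the alpha subunit of the complement receptor of myeloid cells, read 50.8 and 29.3 in the parental line, 33.4 and 17.8 in 16F8, 7.4 and 1.1 in 3A4, 10.4 and 10.1 in 2H1 and 10.7 and 8.1 in 2C11. In the IDH2 clones the signals were 34.5 and 33.3 in 17H5, 28.3 and 29.4 in 8G12, 23.8 and 12.4 in 45G3 and 23.4 and 16.9 in 47C2. All 6 arrays of the IDH1-mutant clones lay below all 12 others. The differences were -2.86 in 3A4 (adjusted p = 5.61e-05), -1.83 in 2C11 (adjusted p = 0.00385) and -1.72 in 2H1 (adjusted p = 0.00486), each ± 0.42; those of the IDH2 clones were -1.07 in 45G3, -0.89 in 47C2, -0.40 in 8G12 and -0.18 in 17H5 and did not pass. The call in 3A4 held with any 1 array left out, while 2C11 read -1.45 without parental replicate 1 (adjusted p = 0.0535) and 2H1 read -1.34 without parental replicate 1 (adjusted p = 0.0687). ITGB2, the beta partner of ITGAX, lay under the median in every array (1 to 6.9), as did 8 of the 9 measured leukocyte markers, among them PTPRC (0.2 to 4.6), CD14 (0.2 to 3.1) and CD3E (0.1 to 2.5). The ninth, CORO1A, a coronin of leukocytes, ran from 12.2 to 34.7 and was called higher than parental in 8G12 (1.15), 45G3 (0.93), 2H1 (0.84), 17H5 (0.82) and 16F8 (0.80). The arrays are of a cultured carcinoma cell line, and what the ITGAX and ITGAE probe sets read in it was not tested. The other ITGAX probe set was under the median in all arrays and did not follow the same order, at -0.59 in 3A4, -0.03 in 2H1 and 0.22 in 2C11.

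Laminin alpha chains, which carry the receptor-binding domains of the trimer, moved in different directions from each other. LAMA4, the alpha chain of vascular and mesenchymal basement membranes, read 20.9 and 31.4 in the parental line, 12 and 5.9 in 16F8, 130.7 and 107.8 in 3A4, 16.5 and 22.7 in 2H1 and 6.1 and 5.2 in 2C11. IDH2-mutant arrays gave 8.6 and 2.8 in 17H5, 8 and 10.5 in 8G12, 5.8 and 9.9 in 45G3 and 3.8 and 4.9 in 47C2. The 3A4 arrays were far above all others, the parental and 2H1 arrays came next, and the remaining clones lay under the array median. Differences were 2.12 in 3A4 (adjusted p = 0.000284), -2.09 in 47C2 (adjusted p = 0.000483), -1.92 in 17H5 (adjusted p = 0.00281), -1.83 in 2C11 (adjusted p = 0.00149), -1.5 in 45G3 (adjusted p = 0.00579), -1.38 in 16F8 (adjusted p = 0.0128) and -1.29 in 8G12 (adjusted p = 0.021), each ± 0.37, and -0.37 in 2H1. The calls in 3A4, 2C11 and 47C2 held with any 1 array left out. The others read -1.37 without 17H5 replicate 2 (adjusted p = 0.0642) in 17H5, -1.23 without parental replicate 2 (adjusted p = 0.0658) and -1.20 without 45G3 replicate 1 (adjusted p = 0.06) in 45G3, -1.11 without parental replicate 2 (adjusted p = 0.128) and -0.97 without 16F8 replicate 2 (adjusted p = 0.154) in 16F8 and -1.02 without parental replicate 2 (adjusted p = 0.183) and -1.13 without 8G12 replicate 1 (adjusted p = 0.131) in 8G12. As the mean over its 5 probe sets, none of the falls passed, and the rise in 3A4 did.

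LAMA2, the alpha chain of merosin, the laminin of muscle and nerve, read 151 ± 26.7 (SD, n = 2) in the parental line, 170 and 153.3 in 16F8, 95.3 and 76.1 in 3A4, 105.3 and 99.9 in 2H1 and 169.3 and 163.7 in 2C11. Its signals in the IDH2 clones were 234.6 and 193.1 in 17H5, 157.4 and 166 in 8G12, 174 and 167.3 in 45G3 and 142.3 and 156.8 in 47C2. The arrays of 3A4 and 2H1 were the 4 lowest of all 18, and those of 17H5 were the 2 highest. It fell by 0.80 in 3A4 (adjusted p = 0.000573) and by 0.54 in 2H1 (adjusted p = 0.0121), and rose by 0.50 in 17H5 (adjusted p = 0.0397), each ± 0.15. The value in 2H1 was -0.36 without parental replicate 1 (adjusted p = 0.155) and -0.50 without 2H1 replicate 2 (adjusted p = 0.0763). The value in 17H5 was 0.32 to 0.64 (adjusted p = 0.0506 to 0.283) without 1 of parental replicate 2, 2H1 replicate 1, 2H1 replicate 2, 17H5 replicate 1, 17H5 replicate 2, 47C2 replicate 1 and 47C2 replicate 2. LAMA5, the main alpha chain of mature epithelial basement membranes, read 285.3 and 235.3 in the parental line, 213.1 and 197.6 in 16F8, 230.4 and 238.9 in 3A4, 214.1 and 264.3 in 2H1 and 182.1 and 170.3 in 2C11. Among the IDH2 clones it read 202 and 179 in 17H5, 243.1 and 231.6 in 8G12, 184.9 and 184.9 in 45G3 and 204.3 and 214.3 in 47C2. It was lower in 2C11, 45G3 and 17H5, at -0.55 in 2C11 (adjusted p = 0.0045), -0.48 in 45G3 (adjusted p = 0.0101) and -0.44 in 17H5 (adjusted p = 0.035), each ± 0.13. These read -0.41 without parental replicate 1 (adjusted p = 0.0641) in 2C11 and -0.34 without parental replicate 1 (adjusted p = 0.113) in 45G3. In 17H5 the value was -0.53 to -0.30 (adjusted p = 0.0515 to 0.245) without 1 of parental replicate 1, 17H5 replicate 1, 17H5 replicate 2, 47C2 replicate 1 and 47C2 replicate 2.

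LAMB3 showed the largest falls among the laminin beta chains. LAMB3, the beta chain of the epithelial laminin that anchors hemidesmosomes, read 230.2 and 236.8 in the parental line, 82 and 94.4 in 16F8, 305.5 and 296.7 in 3A4, 83.6 and 118 in 2H1 and 63.9 and 67.5 in 2C11. The IDH2-mutant clones read 194.7 and 168.7 in 17H5, 102.8 and 108.2 in 8G12, 76.4 and 75.1 in 45G3 and 119.7 and 99.8 in 47C2. The arrays of 3A4 were the highest, then the parental and 17H5 pairs, and those of the other 6 clones lay between 63.9 and 119.7. It differed by -1.80 in 2C11 (adjusted p = 4.15e-07), -1.60 in 45G3 (adjusted p = 1.9e-06), -1.39 in 16F8 (adjusted p = 1.01e-05), -1.22 in 2H1 (adjusted p = 1.88e-05), -1.13 in 8G12 (adjusted p = 0.000105) and -1.08 in 47C2 (adjusted p = 9.5e-05), each ± 0.16, and by 0.36 in 3A4 and -0.36 in 17H5, which did not pass. All 6 falls held with any 1 array left out and under every other setting with the parental line as the reference.

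LAMB1, the beta chain of most embryonic and many adult laminins, read 498.7 and 423.1 in the parental line, 287.6 and 255.4 in 16F8, 591.7 and 523.6 in 3A4, 474.4 and 498.4 in 2H1 and 355.1 and 307.5 in 2C11. In the IDH2 clones the signals were 345.2 and 306 in 17H5, 310.7 and 433.1 in 8G12, 406.2 and 362.8 in 45G3 and 382.5 and 379.7 in 47C2. It was lower in 16F8, 17H5 and 2C11, at -0.76 in 16F8 (adjusted p = 0.00123), -0.50 in 17H5 (adjusted p = 0.0329) and -0.47 in 2C11 (adjusted p = 0.022), each ± 0.14. The fall in 16F8 held with any 1 array left out. In 17H5 it was -0.58 to -0.38 (adjusted p = 0.0581 to 0.233) without 1 of parental replicate 1, 17H5 replicate 1 and 17H5 replicate 2, and in 2C11 -0.35 without parental replicate 1 (adjusted p = 0.164) and -0.37 without 2C11 replicate 2 (adjusted p = 0.167). LAMB2, the beta chain of kidney and synaptic laminins, read 163.9 and 131.9 in the parental line, 109.3 and 87.9 in 16F8, 119.7 and 157.4 in 3A4, 131 and 141.1 in 2H1 and 91.4 and 76.4 in 2C11. IDH2-mutant arrays gave 145.9 and 117 in 17H5, 130.9 and 139.9 in 8G12, 112 and 79.2 in 45G3 and 122.8 and 127.8 in 47C2. It was lower in 2C11, 45G3 and 16F8, at -0.80 in 2C11 (adjusted p = 0.00482), -0.63 in 45G3 (adjusted p = 0.019) and -0.57 in 16F8 (adjusted p = 0.0387), each ± 0.19. These became -0.64 without parental replicate 1 (adjusted p = 0.0568) and -0.67 without 2C11 replicate 2 (adjusted p = 0.0568) in 2C11 and -0.48 without parental replicate 1 (adjusted p = 0.146) and -0.39 without 45G3 replicate 2 (adjusted p = 0.218) in 45G3. In 16F8 the value was -0.57 to -0.42 (adjusted p = 0.0522 to 0.248) without 1 of parental replicate 1, 16F8 replicate 2, 47C2 replicate 1 and 47C2 replicate 2.

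The gamma chains changed in few clones. LAMC1, the gamma chain of most laminins, read 536 and 668.8 in the parental line, 496.9 and 611.1 in 16F8, 752 and 877 in 3A4, 697.5 and 705.6 in 2H1 and 583.7 and 662.5 in 2C11. Its signals in the IDH2 clones were 591.2 and 708.9 in 17H5, 496.2 and 454.1 in 8G12, 656.2 and 514.5 in 45G3 and 651.8 and 615.5 in 47C2. It was higher in 3A4 by 0.44 ± 0.14 (adjusted p = 0.0237), which became 0.28 without parental replicate 1 (adjusted p = 0.224) and 0.33 without 3A4 replicate 2 (adjusted p = 0.194). LAMC3, a gamma chain of a few tissues such as brain and testis, read 33.6 and 31.1 in the parental line, 35 and 36 in 16F8, 16.5 and 18.1 in 3A4, 20.3 and 20.1 in 2H1 and 33.9 and 25 in 2C11. Among the IDH2 clones it read 27.3 and 41.6 in 17H5, 34.5 and 39 in 8G12, 28.3 and 28.2 in 45G3 and 31.3 and 30.8 in 47C2. It was lower in 3A4 by a log2 difference of -0.83 (adjusted p = 0.00671) and in 2H1 by -0.62 (adjusted p = 0.0373), each ± 0.22. The 4 arrays of these clones were the 4 lowest. The call in 3A4 held with any 1 array left out but not as a mean over probe sets (-0.67, adjusted p = 0.0953) or without the 4 arrays with high poly-A controls (-0.77, adjusted p = 0.0534), while 2H1 read -0.68 to -0.57 (adjusted p = 0.052 to 0.15) without 1 of parental replicate 1, parental replicate 2, 2H1 replicate 1, 2H1 replicate 2, 47C2 replicate 1 and 47C2 replicate 2.

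In single clones, 7 to 12 of the 24 tested members were called against the parental line, more lower than higher in every clone but 3A4. In the IDH1 R132H clone 2C11, 11 members were called, 1 higher and 10 lower, against 25.9% of all genes (13.4% higher and 12.5% lower). ITGB8 (0.98) was its higher member, and ITGAX (-1.83), LAMA4 (-1.83) and LAMB3 (-1.80) were lowest. In 2H1 8 members were called against 31% of all genes (14.7% higher and 16.3% lower). ITGA9 (1.60), ITGB8 (1.19) and ITGB4 (0.38) were higher, and ITGAX (-1.72), LAMB3 (-1.22) and LAMC3 (-0.62) were the lowest of the 5 that fell. The R132C clone 3A4 had 10 called members against 37.2% of all genes. Its 6 higher members (17.6% of all genes were higher) were led by LAMA4 (2.12), ITGB8 (1.13) and ITGA7 (0.86). The 4 lower ones (19.6% of all genes were lower) were ITGAX (-2.86), LAMC3 (-0.83), LAMA2 (-0.80) and ITGA3 (-0.43). As shares of the tested members these calls were 41.7% in 3A4 and 33.3% in 2H1, both near the shares of all genes, and 45.8% in 2C11.

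In the IDH2 R140Q clones, 9 members (37.5%) were called in 8G12 against 18.5% of all genes, and 7 (29.2%) in 17H5 against 11.9%. ITGB8 (1.77) and ITGA9 (1.40) were higher in 8G12, and 7 members were lower (7.05% of all genes), with LAMA4 (-1.29), ITGB4 (-1.27) and LAMB3 (-1.13) lowest. LAMA2 (0.50) was the single higher member in 17H5, and 6 were lower (4.97% of all genes), with LAMA4 (-1.92), ITGA3 (-0.85) and ITGB4 (-0.73) the lowest. In the R172K clones, 8 members (33.3%) were called in 47C2 against 28% of all genes, which is also near, and 12 (50%) in 45G3 against 29.8%. ITGA9 (0.91) and ITGA4 (0.86) were higher in 47C2, and LAMA4 (-2.09), LAMB3 (-1.08) and ITGA3 (-0.81) lowest. Called higher in 47C2 were 2 members and called lower 6, against 14.2% and 13.8% of all genes. In 45G3 ITGA9 (1.35), ITGA4 (0.78), ITGB8 (0.73) and ITGAE (0.35) were higher, and LAMB3 (-1.60), LAMA4 (-1.5) and ITGA3 (-1.28) lowest. Called higher in 45G3 were 4 members and called lower 8, against 15.1% and 14.7% of all genes. The wild-type clone 16F8 had 8 called members (33.3%) against 22% of all genes: ITGAE (0.42) higher and 7 lower (9.57% of all genes), of which LAMB3 (-1.39), LAMA4 (-1.38) and ITGA3 (-1.34) lay lowest. The median log2 difference of the tested members was -0.14 in 2C11, 0.07 in 2H1, 0.06 in 3A4, -0.19 in 16F8, -0.16 in 17H5, -0.11 in 8G12, -0.20 in 45G3 and -0.13 in 47C2, where that of all genes ran from -0.02 to 0.04. The 8 laminin chains had medians below 0 in 7 of the 8 clones, from -0.51 in 2C11 to -0.22 in 8G12, and 0.09 in 3A4. Of the 73 calls, 39 held with any 1 array left out, and 32 of those also held under every other setting with the parental reference. Leaving out the 4 arrays with high poly-A controls also left 1 parental array as the reference for every clone. All calls of ITGA4, LAMA5, LAMB2, LAMC1 and LAMC3 were among those lost in that setting. The part of the poly-A controls in these losses was not tested.

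**Figure D3:**
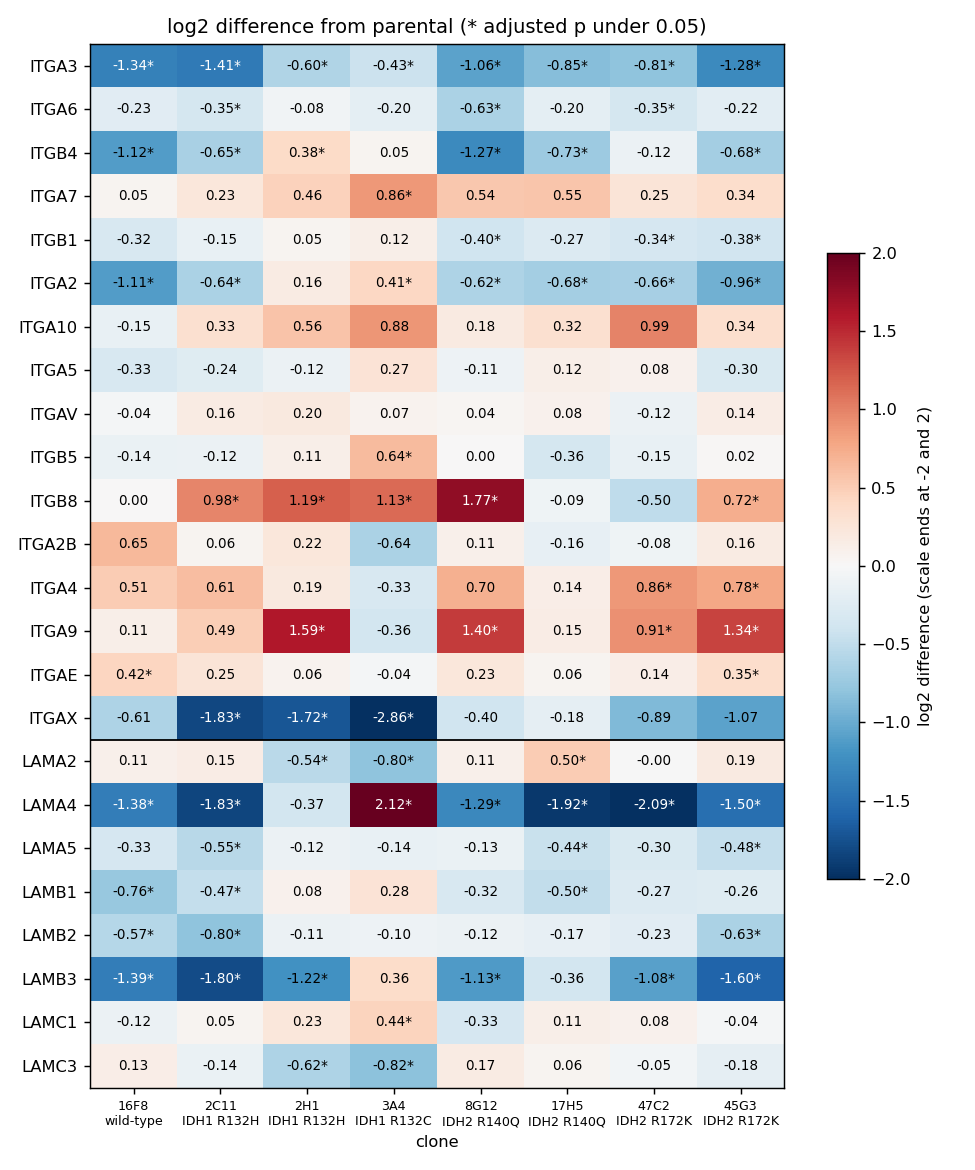
Log2 difference of each targeted clone from the parental line for the 24 tested members (integrins above the line, laminins below), with an asterisk where limma's adjusted p is under 0.05 and colours ending at -2 and 2. ITGA3 is called lower in all 8 clones, and LAMA4 is 2.12 in 3A4 and at or below -0.37 in the others.

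Part of what set the mutant clones apart from the parental line also set 16F8 apart from it, and the direction of several members turned with the wild-type reference. Against 16F8, the members called were 2 in 2C11 (2.26% of all genes), 10 in 2H1 (16.5%), 19 in 3A4 (26.3%), 4 in 17H5 (8.55%), 3 in 8G12 (0.63%), 1 in 45G3 (2.17%) and 4 in 47C2 (6.41%). These comparisons share the 16F8 arrays. ITGA3, lower than parental in all mutant clones, was higher than 16F8 in 4 of them, at 0.91 in 3A4 (adjusted p = 6.97e-05), 0.74 in 2H1 (adjusted p = 0.000786), 0.53 in 47C2 (adjusted p = 0.0215) and 0.49 in 17H5 (adjusted p = 0.0257), and 0.28 in 8G12, 0.065 in 45G3 and -0.06 in 2C11, each ± 0.13. ITGA2 was higher than 16F8 in 6 mutant clones, at 1.53 in 3A4 (adjusted p = 1.32e-08), 1.27 in 2H1 (adjusted p = 1.71e-07), 0.49 in 8G12 (adjusted p = 0.036), 0.47 in 2C11 (adjusted p = 0.0208), 0.45 in 47C2 (adjusted p = 0.0139) and 0.43 in 17H5 (adjusted p = 0.0158), and 0.16 in 45G3. LAMB3 was higher than 16F8 in 3A4 and 17H5, at 1.75 in 3A4 (adjusted p = 4.26e-07) and 1.02 in 17H5 (adjusted p = 0.000695), and -0.41 in 2C11, 0.17 in 2H1, 0.26 in 8G12, 0.31 in 47C2 and -0.21 in 45G3. ITGB4 was higher in 2H1, 3A4 and 47C2, at 1.5 in 2H1 (adjusted p = 7.37e-07), 1.17 in 3A4 (adjusted p = 9.66e-06) and 1.00 in 47C2 (adjusted p = 0.00017).

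ITGB8 and ITGA9 kept their values with either wild-type clone, since 16F8 and parental differed by 0.00 and 0.11 in them. Against 16F8, ITGB8 read 1.77 in 8G12 (adjusted p = 0.000451), 1.19 in 2H1 (adjusted p = 0.00197), 1.13 in 3A4 (adjusted p = 0.00174) and 0.98 in 2C11 (adjusted p = 0.0345), and 0.72 in 45G3, which no longer passed. ITGA9 read 1.48 in 2H1 (adjusted p = 7.25e-05), 1.29 in 8G12 (adjusted p = 0.00317), 1.23 in 45G3 (adjusted p = 0.00228) and 0.80 in 47C2 (adjusted p = 0.0255). LAMA4 was 3.50 in 3A4 (adjusted p = 2.6e-06), the one LAMA4 call against 16F8. ITGAX was -2.25 in 3A4 (adjusted p = 0.000777), with -1.21 in 2C11 and -1.10 in 2H1 not passing.

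**Figure D4:**
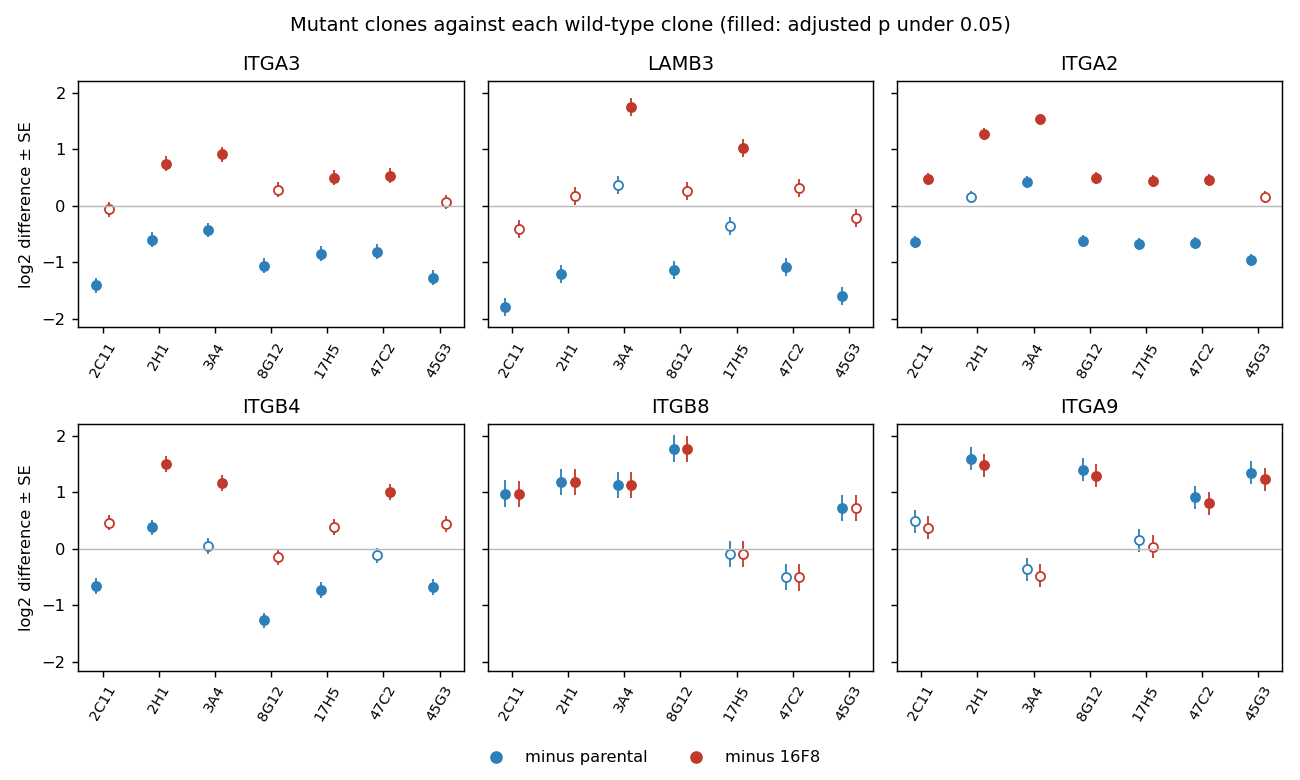
Log2 difference ± SE of each mutant clone from parental (blue) and from 16F8 (red) for 6 members, filled where the adjusted p is under 0.05. ITGA3, LAMB3 and ITGA2 shift upward as a whole with 16F8 as the reference, while ITGB8 and ITGA9 stay within 0.11 of their values.

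With the clone as the replicate, no integrin or laminin passed the adjusted threshold in any genotype comparison. Limma on the 9 clone means called 0 of 24 members in 7 mutant against 2 wild-type clones (0% of all genes), 3 IDH1 against wild-type clones (0%), 4 IDH2 against wild-type clones (0%), IDH1 against IDH2 clones (0.00798%) and the R172K against the R140Q clones (0%). At an unadjusted p under 0.05 the members numbered 2, 4, 0, 6 and 1 of 24. Genes of the whole array numbered 864, 1924, 633, 1652 and 852 of the 12537 tested. Among the members, ITGA10 had the smallest p in mutant against wild-type clones, at 0.59 ± 0.25 (adjusted p = 0.682), followed by ITGA7, at 0.44 ± 0.19 (adjusted p = 0.682), and ITGAX, at -0.97 ± 0.58 (adjusted p = 0.684). ITGA10 and ITGA7 were the 2 members with all 7 mutant clones above both wild-type clones, which 2.89% of genes showed, and 0 members had all 7 below (2.94%). In IDH1-mutant against wild-type clones the first 3 were ITGAX, at -1.83 ± 0.40 (adjusted p = 0.164), LAMC3, at -0.59 ± 0.23 (adjusted p = 0.271), and ITGA10, at 0.67 ± 0.29 (adjusted p = 0.307). In IDH2-mutant against wild-type clones the first 3 were ITGA7, at 0.40 ± 0.20 (adjusted p = 0.891), ITGB1, at -0.19 ± 0.10 (adjusted p = 0.891), and ITGA10, at 0.53 ± 0.27 (adjusted p = 0.891).

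The IDH1-mutant clones differed from the IDH2-mutant clones with the smallest p in ITGAX, at -1.5 ± 0.33 (adjusted p = 0.17), ITGB1, at 0.35 ± 0.08 (adjusted p = 0.194), and LAMA2, at -0.59 ± 0.21 (adjusted p = 0.304). Larger differences with larger p occurred, as in LAMA4, with log2 means of 4.773 in IDH1-mutant and 3.098 in IDH2-mutant clones. ITGB1 was the single member with all 3 IDH1 clones above all 4 IDH2 clones, which 5.97% of genes showed, and ITGAX the single one with all below (6.79%). For ITGB1 this order of single clones rested on the probe set used. On the 2 other probe sets over the median in all arrays, 2C11 read -0.28 and -0.26 against parental and 47C2 read -0.10 and -0.08, while 2H1 and 3A4 stayed above all 4 IDH2 clones. The ITGB1 probe set of highest variance, at which the IDH1 minus IDH2 difference was -0.43, is dim: its mean signal was 9.16 and it lay over the median in 5 of 18 arrays. R172K and R140Q clones differed with the smallest p in ITGAX, at -0.69 ± 0.28 (adjusted p = 0.731), ITGA10, at 0.42 ± 0.28 (adjusted p = 0.779), and ITGB4, at 0.60 ± 0.42 (adjusted p = 0.794). Clones of 1 genotype could lie far apart: ITGA2 read 2C11 at 430.3 and 394.1 and 2H1 at 709.9 and 723.2, both R132H, and ITGB8 read 8G12 at 166.7 and 210.3 and 17H5 at 37 and 66.7, both R140Q. When single arrays were fitted and the clone was a random block, IDH1-mutant against wild-type clones gave 1 call, ITGAX at -1.83 (adjusted p = 0.0353), and the other 4 comparisons gave none.

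Members with several probe sets over the median in all arrays gave a check within the arrays. The 4 such probe sets of ITGB4 gave the same sign in 16F8, 2C11, 2H1, 8G12, 17H5 and 45G3, but ran from -0.82 to -0.36 in 17H5 and split in sign in 47C2, at -0.12, -0.21, 0.20 and 0.19. The 3 of LAMA2 were all lower in 2H1 and 3A4 and higher in 17H5, and the 2 of LAMB1 were lower in 16F8, 2C11 and 17H5. The 3 of ITGB1 were lower in 8G12, 47C2 and 45G3, with 47C2 at -0.34, -0.10 and -0.08. Both ITGA2 probe sets fell in the same 6 clones, from -0.65 to -1.41 on the second one, but the second read 0.00 in 2H1 and -0.03 in 3A4, where the first read 0.16 and 0.41. The second ITGA6 probe set departed from the first: it read -1.26 in 8G12, -0.82 in 2C11, -0.73 in 16F8, 0.44 in 3A4 and 0.17 in 47C2, where the first read -0.63, -0.35, -0.23, -0.20 and -0.35. For ITGB5, 3 of 4 probe sets were higher in 3A4, at 0.64, 0.61 and 0.51, and 1 was lower, at -0.51. Which transcripts the probe sets read was not tested.

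**Figure D5:**
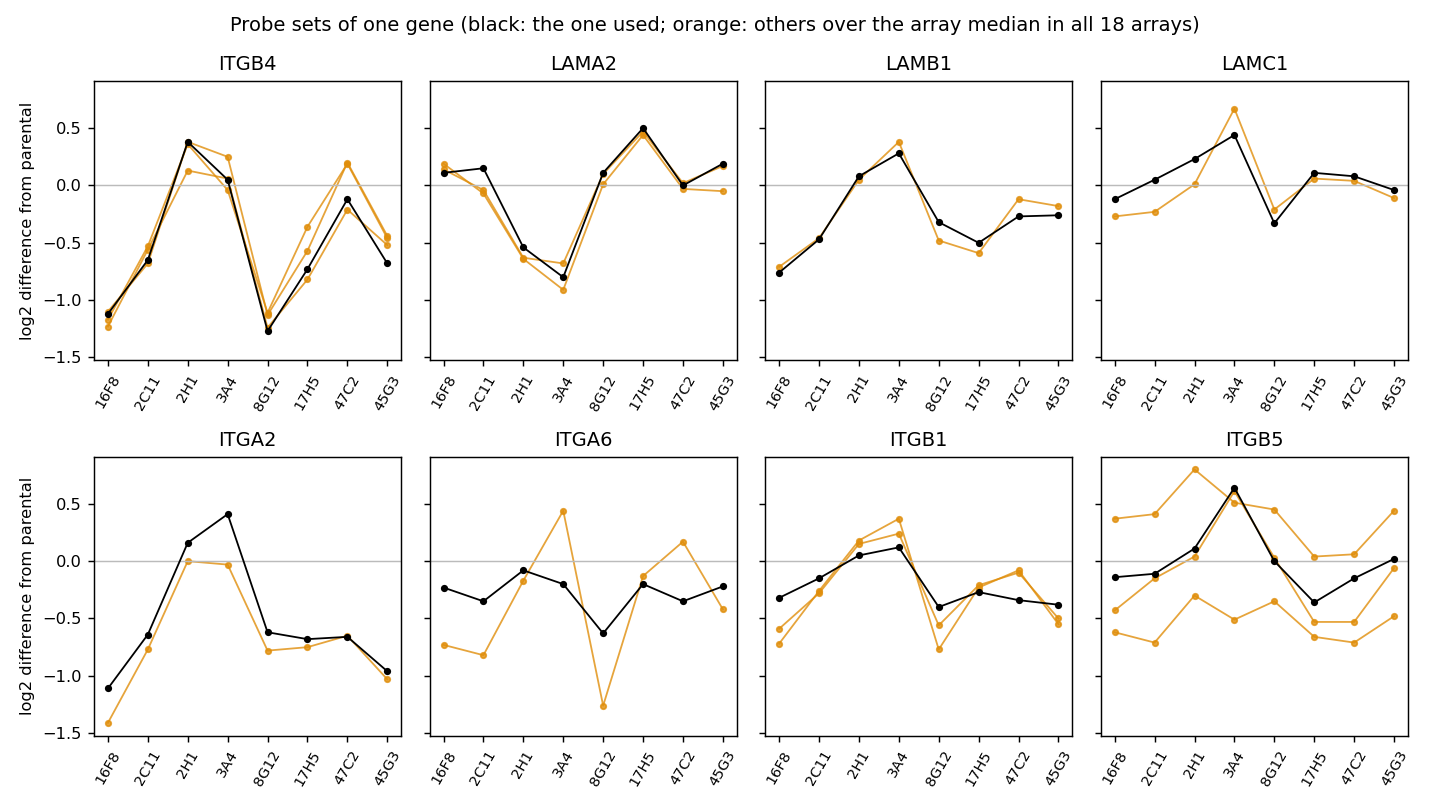
Log2 difference from the parental line in the 8 targeted clones for 8 members, for the probe set used (black) and the other probe sets over the array median in all 18 arrays (orange). The lines run close for LAMA2 and LAMB1, split in sign for ITGB4 in 47C2 (-0.12 against 0.20), and run apart for ITGA6 and ITGB5, as in 3A4, where ITGB5 reads 0.64 and -0.51.

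Genes that act with integrins or laminins were read from 5 lists. The F test called 16 of 27 focal adhesion genes (59.3%), 1 of 3 hemidesmosome genes, 10 of 14 basement membrane and laminin partners (71.4%), 17 of 23 other integrin ligands (73.9%) and 7 of 19 integrin regulators and partners (36.8%), beside 52.4% of all genes. RAB25, which recycles alpha5beta1 at the cell front, was lower in 7 clones, most at -3.71 in 2H1, -2.66 in 3A4 and -1.52 in 47C2, and did not pass in 16F8 (-0.24). PLAUR, the urokinase receptor that binds beta1 integrins, was lower in all 8 clones, from -0.70 in 47C2 to -1.24 in 2H1. DAB2, an adaptor for integrin uptake, was higher in all 8, from 0.59 in 45G3 to 0.88 in 3A4. SLC3A2, the heavy chain of an amino acid transporter that binds beta1 tails, was lower in 7 clones, most in 2C11 at -1.25, with 17H5 at -0.09 not passing.

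Ligands moved in both directions. SPARC, a matrix protein that binds collagen IV, was higher in 7 clones, from 1.99 in 2C11 to 3.34 in 45G3, and lower in 3A4 at -1.49. NTN4, a netrin that opens laminin networks, was 1.12 in 2H1, 0.94 in 3A4 and -0.83 in 16F8. COL4A6, a chain of basement membrane collagen, was lower in 6 clones, to -1.24 in 8G12, and higher in 3A4 at 0.86. SDC1, a syndecan that binds laminin, was higher in 7 clones, from 0.50 in 45G3 to 0.86 in 3A4. Of the 23 other integrin ligands tested, 4 to 8 per clone were called higher and 2 to 7 lower. Of all genes, 6.89% to 17.6% were called higher and 4.97% to 19.6% lower. COL12A1 and SPP1 (osteopontin) were higher in all 8 clones, most in 3A4 at 1.51 and 2.50. TGFB2, one of the TGF-beta ligands, was 2.36 in 2H1, 1.37 in 45G3 and 0.99 in 3A4, and FN1 (fibronectin) was 1.66 in 2H1, 1.54 in 3A4 and 0.78 in 45G3, all called.

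Of the adhesion plaque genes, FERMT1, the kindlin of epithelial cells, was lower in 6 clones, from -0.32 in 2H1 to -0.74 in 8G12. TNS4, a tensin that binds beta1 tails, was higher in 5, from 0.56 in 45G3 to 1.22 in 3A4. ZYX, a stress fibre protein, was 0.67 in 3A4, -0.38 in 16F8 and -0.42 in 2C11, and ACTN1, an actin cross-linker, was called in 16F8 alone at -0.84. PLEC, the plectin that ties ITGB4 to keratin, was -0.69 in 16F8, -0.62 in 2C11, -0.43 in 45G3 and 0.59 in 3A4. In the same 4 clones ITGB4 read -1.12 in 16F8, -0.65 in 2C11, -0.68 in 45G3 and 0.05 in 3A4. PLEC did not pass in 8G12 (-0.22) and 17H5 (-0.25), where ITGB4 was called lower at -1.27 and -0.73, nor in 2H1 (-0.05), where ITGB4 was higher. ZEB1 itself was 1.51 in 3A4, 1.43 in 2H1, 1.02 in 47C2, 0.83 in 45G3 and 0.53 in 2C11, -0.45 in 16F8, -0.35 in 17H5 and 0.07 in 8G12, called in all but the last 2. LAMB3, whose promoter window holds the E-box shown above, read 0.36 in 3A4, -1.22 in 2H1, -1.08 in 47C2, -1.60 in 45G3, -1.80 in 2C11, -1.39 in 16F8, -0.36 in 17H5 and -1.13 in 8G12. Whether ZEB1 bears on any member was not tested.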

How the data were processed

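Total RNA from 9 HCT116 clones, 2 biological replicates each, was amplified, labelled with biotin and hybridised to 18 Affymetrix arrays. The deposited intensity values are MAS5 signals on a linear scale, per the submitters' processing notes (version and settings: not given in the sources used here). Over the middle 96% of probe sets the mean lay between 150.01 and 150.02 in every array, so the deposited intensities were already scaled to 1 level. Of 54675 probe sets, 41091 carried 1 gene symbol, 1801 carried several, 11721 carried none and 62 were controls. Arrays give no counts, and 2 arrays per clone limit the precision.

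Values were log2-transformed after adding 2.2, which is the 25th percentile. Each gene was read on its probe set of highest mean signal, and entered the tests if some clone had both arrays at or over the array median, which left 12537 of 19775 genes. Limma 3.58.1 under R 4.3.3 fitted linear models to all of them and moderated the variances with a trend on the mean, with Benjamini-Hochberg adjustment over all genes and a threshold of 0.05 on two-sided tests. The fit for clones used 18 arrays (9 residual degrees of freedom). The fits for genotypes used the 9 clone means (7, 6 or 4 residual degrees of freedom), and took the spread of R132C, which has 1 clone, from the other genotypes. Errors of differences are standard errors. The procedure was tested on simulated data with the spread of each gene, in which 200 genes were changed by a log2 difference of 1. The fit for clones recovered 80% of them in 2H1 and called 4 unchanged genes. The fit of mutant against wild-type clones recovered 71.5% and called 10 unchanged genes. Replicate numbers were not taken as pairs: deviations of same-numbered arrays correlated between -0.415 and 0.391 over 36 pairs of clones, and 3 were over 0.1. Large values of either sign can come from array effects shared under another numbering, which were not tested. The arrays with high poly-A controls carried both replicate numbers.

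Every member is named, and signals in every clone are given for members passing the F test. For each clone the 3 highest and 3 lowest called members are named, and for each genotype comparison the 3 smallest p-values. Up to 4 genes of each other list are named by the smallest F-test p. The members and lists were chosen with earlier results of these data known. Alternatives were other offsets, no filter, quantile normalization, other probe set rules, no variance trend, a replicate block, the clone as a random block, 16F8 as the reference, and leaving out arrays or clones. Leaving out the 4 arrays with high poly-A controls was chosen after seeing the data. Promoter sequences are RefSeq's on GRCh38.p14. Plots used matplotlib 3.10.9 in Python 3.11.15.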

Additional observations from a re-analysis of the deposited data

Results flagged for a closer look

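Each of the 24 tested members was checked in 2 groups, the 7 mutant clones and the 4 IDH2-mutant clones. In 2 members a clone stood apart from its group by more than Dixon's 95% value. Chance passes that value in about 1 in 20 groups, so 2 is near the number that chance would give. ITGA2 in 45G3 lay below the other 3 IDH2-mutant clones, at a log2 mean of 8.38 against 8.65 for the nearest, a gap of 0.833 of the group's range. LAMA4 in 3A4 lay above the other 6 mutant clones, at 6.92 against 4.43 for the nearest, a gap of 0.59 of the range of 4.21.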

How the results depend on the processing

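With 1 array left out at a time, 18 to 21 of the 24 tested members differed among clones, and calls against the parental line numbered 61 to 75. By clone these counts ran from 7 to 12 in 2C11, 5 to 8 in 2H1, 7 to 12 in 3A4, 6 to 9 in 16F8, 3 to 8 in 17H5, 7 to 9 in 8G12, 7 to 13 in 45G3 and 4 to 9 in 47C2. The 5 genotype comparisons were refitted with 1 clone left out at a time, and their counts stayed at 0. With the replicate number as a block there were 20 members in the F test and 73 calls, and the block ended 1 call, ITGB4 in 2H1. Counts that moved by over 1.5 times were 5 in 47C2 without a filter, 5 in 2H1 and 5 in 47C2 with the probe set of highest variance, 3 in 47C2 with the mean over probe sets, and 6 in 2C11 without the 4 arrays with high poly-A controls. With 16F8 as the reference they were 2 in 2C11, 19 in 3A4, 4 in 17H5, 3 in 8G12, 1 in 45G3 and 4 in 47C2. When the clone was a random block, the IDH1-mutant against wild-type comparison gave 1 call, ITGAX at -1.83. Members tested for the totals below were 35 without a filter, 20 with the highest-variance probe set and 25 without the poly-A arrays. The other settings below tested 24, and the fit without 8G12 replicate 2 tested 25. Calls over all clones numbered 76 with an offset of 16, 73 with an offset of 1, 65 without a filter, 74 with quantile normalization, 62 with the probe set of highest variance, 56 with the mean over probe sets, 65 without a variance trend and 67 without the poly-A arrays.

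Signs turned with the probe set of highest variance for ITGA6 (0.17) and ITGB1 (0.41) in 47C2 and for ITGB1 between IDH1 and IDH2 clones (-0.43). The ITGB1 values are those of a dim probe set with a mean signal of 9.16, over the median in 5 of 18 arrays, and the 2 other ITGB1 probe sets over the median in all arrays read -0.10 and -0.08 in 47C2. With 16F8 as the reference they turned for ITGA2 in 2C11 (0.47), 8G12 (0.49), 17H5 (0.43), 47C2 (0.45) and 45G3 (0.16), and for ITGA3 in 2H1 (0.74), 3A4 (0.91), 8G12 (0.28), 17H5 (0.49), 47C2 (0.53) and 45G3 (0.065). The same held for ITGB4 in 2C11 (0.47), 17H5 (0.39) and 45G3 (0.44), LAMB3 in 2H1 (0.17), 8G12 (0.26) and 47C2 (0.31), LAMB1 in 2C11 (0.28) and 17H5 (0.26), LAMA4 in 8G12 (0.086) and ITGAE in 45G3 (-0.075). That reference replaces the parental arrays by construction, and the cause of the other changes was not tested. Signals of LAMA4, ITGAX, ITGA4, ITGA10 and ITGA2B lie near the array median, which limits their precision.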
